A study of Mus musculus with 18 samples.

Results

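The Serpin family of serine protease inhibitors and their relatives was followed in mouse MCA205 cells, TC1 cells and TC1 tumours, with and without CRISPR targeting of Nat10. Members were taken by gene symbol, as Serpin followed by a clade letter from a to i and a number, with transcripts summed for each gene. The 3 tables together named 60 such genes among 35310 genes, and 44 of the 60 stood in all 3 tables. A member was counted as expressed where at least 3 libraries of a table held at least 1 FPKM, which is fragments per kilobase of transcript, scaled to library size. By that rule 15 of the 55 listed members were expressed in MCA205 cells, 22 of 51 in TC1 cells and 25 of 50 in the tumours. In all, 30 members were expressed in at least 1 table, 11 of them in all 3, and the other 30 in none. On a list of 15 members made mainly by the liver, 13 were expressed somewhere, and those are treated apart below because liver transcripts were present in libraries that the labels give as cultured cells.

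Most serpins hold an exposed reactive centre loop that a target protease cuts as if it were a substrate. The cut loop then folds into the body of the serpin and carries the trapped protease with it. The clades differ in where they act. Clade A holds secreted plasma proteins such as alpha-1-antitrypsin, clade B holds proteins that mostly stay inside cells and protect them from their own or foreign proteases, and clade E holds inhibitors of plasminogen activators. A few members, among them the collagen chaperone HSP47 and pigment epithelium-derived factor, inhibit no protease.

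The series holds 18 RNA libraries in 6 groups of 3. MCA205, a methylcholanthrene-induced fibrosarcoma line, and TC1, usually described as a lung epithelial line carrying papillomavirus oncogenes although the labels call it fibrosarcoma too, were each sequenced in culture as wild type and as sgNAT10 cells. Wild-type and sgNAT10 TC1 tumours had been grown under the skin and were taken on day 8. NAT10 writes N4-acetylcytidine on RNA, and the series title asks how its loss bears on interferon responses. No label names a clone, a culture or an animal for any library, and none gives the guide sequence, the host's strain or age, or the day on which cells were collected. The p-values below thus speak to variation among libraries, and that variation may be technical. An effect of the guide and a difference between the cell populations that were sequenced cannot be told apart. Tumours mix cancer and host cells, and in such bulk samples fewer cells of a type and less RNA per cell cannot be told apart.

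The libraries held between 51661298 and 78501790 estimated counts. Nat10 itself stood between 11.7 and 16.3 FPKM in every library and edgeR called no change in it (log2 changes of 0.00, -0.22 and -0.22, adjusted p of 0.984, 0.161 and 0.336), so its level does not check the labels. The 11 fibroblast and mural markers were above 0 in each table. Their summed level was 35.4 to 55.4 FPKM in wild-type and 221 to 227 FPKM in sgNAT10 MCA205 cells, 36.9 to 86.4 and 18.8 to 21.2 FPKM in TC1 cells, and 261 to 372 and 270 to 336 FPKM in the tumours. The 18 liver markers were all above 0 in every table and reached 789 to 1471 FPKM in TC1 cells, where the albumin gene Alb alone stood at 277 to 479 FPKM.

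The reactive loop meets the target protease, and it shows how close some relatives are whose reads had to be told apart. Its coding bases are given here from GENCODE M21 transcripts for the members that the results turn on. Each run is written 5′ to 3′ from the 10 codons of the hinge, in lower case, through the loop, in capitals, to the conserved strand that follows, in lower case again.
Serpinf1: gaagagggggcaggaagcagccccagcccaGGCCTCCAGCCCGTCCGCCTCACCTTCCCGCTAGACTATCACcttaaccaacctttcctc
Serpinb2: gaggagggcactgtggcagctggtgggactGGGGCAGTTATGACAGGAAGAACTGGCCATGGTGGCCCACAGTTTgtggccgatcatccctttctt
Serpinb6a: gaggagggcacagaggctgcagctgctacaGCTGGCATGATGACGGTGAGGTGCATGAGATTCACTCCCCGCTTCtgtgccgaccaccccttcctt
Serpinb9: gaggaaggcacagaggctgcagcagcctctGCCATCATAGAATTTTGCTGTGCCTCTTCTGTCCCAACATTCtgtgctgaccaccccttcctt
Serpinb9b: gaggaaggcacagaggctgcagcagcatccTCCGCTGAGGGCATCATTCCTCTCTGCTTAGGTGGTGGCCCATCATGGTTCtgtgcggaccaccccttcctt
Serpina3f: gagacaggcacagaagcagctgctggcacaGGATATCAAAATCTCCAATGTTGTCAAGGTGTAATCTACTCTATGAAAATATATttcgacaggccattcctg
Serpina3g: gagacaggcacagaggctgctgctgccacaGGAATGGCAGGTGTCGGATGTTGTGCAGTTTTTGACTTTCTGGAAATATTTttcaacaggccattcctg
Serpina3m: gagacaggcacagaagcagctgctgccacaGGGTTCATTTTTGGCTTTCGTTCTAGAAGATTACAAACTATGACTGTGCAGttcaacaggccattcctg
Serpina3n: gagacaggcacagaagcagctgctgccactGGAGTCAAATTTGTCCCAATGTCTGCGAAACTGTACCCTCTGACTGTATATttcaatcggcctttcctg
Serpina1a: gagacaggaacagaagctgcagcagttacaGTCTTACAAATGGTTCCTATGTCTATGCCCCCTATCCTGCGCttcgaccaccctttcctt
Serpina1c: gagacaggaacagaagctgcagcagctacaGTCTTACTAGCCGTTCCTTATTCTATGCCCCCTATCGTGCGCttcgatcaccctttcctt
Serping1: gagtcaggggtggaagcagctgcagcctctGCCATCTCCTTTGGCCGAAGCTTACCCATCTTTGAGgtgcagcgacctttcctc
Serpini1: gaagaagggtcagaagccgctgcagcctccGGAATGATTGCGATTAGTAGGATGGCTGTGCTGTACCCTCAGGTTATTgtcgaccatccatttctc
The hinge of Serpinf1, which inhibits no protease, held 1 alanine codon, while that of Serping1, Serpini1, Serpinb9 and Serpina3n held 4 each. Some other members given here held fewer than 4, with 2 in Serpinb2 and 3 in each of Serpina1a and Serpina3f. Among Serpina3g, Serpina3i, Serpina3m and Serpina3n, whose loops are of equal length, pairs were identical at a median of 95% of the hinge bases and 52.9% of the loop bases. Among Serpina1a to Serpina1e the loop was identical at a median of 81.0% of its bases. Over whole coding sequences, 67.7% of the stretches of 50 bases of Serpina1a also occur in Serpina1c, and 20.4% of those of Serpina3m occur in Serpina3k. For Serpinb9f, Serpinb9g and the gene listed as Serpinb9h, between 71.0% and 84.6% of such stretches occur in another member. Values of single members of those groups are therefore uncertain, since they rest on how reads were divided among relatives. No stretch of Serpinf1, Serpinb2, Serpinb8, Serping1, Serpini1, Serpine2 or Serpinh1 was shared with another member, and for Serpinb6a and Serpinb9 the shares were 2.52% and 1.21%.

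Promoter stretches are given for 5 of the members described below that hold a motif of interferon or stress signalling, since the study's title concerns interferon responses. Each is the 150 bases before a RefSeq start on GRCm38.p6, 5′ to 3′ on the gene's own strand, with the named motif in capitals.
Serpinb9, chr13:33004391-33004540, plus strand: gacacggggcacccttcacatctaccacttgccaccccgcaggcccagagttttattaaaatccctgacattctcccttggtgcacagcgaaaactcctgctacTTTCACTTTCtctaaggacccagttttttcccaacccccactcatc
Serpinb6a, chr13:34002795-34002944, minus strand: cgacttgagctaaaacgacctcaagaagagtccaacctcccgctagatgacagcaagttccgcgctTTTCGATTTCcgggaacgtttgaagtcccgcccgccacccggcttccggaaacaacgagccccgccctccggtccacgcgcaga
Serpina3f, chr12:104214394-104214543, plus strand: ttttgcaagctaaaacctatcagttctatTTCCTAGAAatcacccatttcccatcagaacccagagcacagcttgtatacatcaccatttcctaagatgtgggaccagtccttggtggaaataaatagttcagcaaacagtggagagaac
Serpina3g, chr12:104235997-104236146, plus strand: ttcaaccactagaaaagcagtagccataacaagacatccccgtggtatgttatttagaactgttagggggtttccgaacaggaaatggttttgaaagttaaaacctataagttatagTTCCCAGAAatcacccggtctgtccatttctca
Serpinb2, chr1:107511273-107511422, plus strand: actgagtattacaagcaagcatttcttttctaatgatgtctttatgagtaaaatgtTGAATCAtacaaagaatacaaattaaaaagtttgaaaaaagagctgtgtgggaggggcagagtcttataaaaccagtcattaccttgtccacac
The capitals mark an interferon response motif (GAAA, any 2 bases, GAAA, on either strand) in Serpinb9 and Serpinb6a, a GAS motif (TTC, any 3 bases, GAA), bound by STAT factors, in Serpina3f and Serpina3g, and an AP-1 motif (TGA, any base, TCA) in Serpinb2. In windows of 250 bases before to 50 bases after a start, the interferon response motif occurred in 3.44% of 32851 promoters, the GAS motif in 8.30% and the AP-1 motif in 7.81%. Of 60 promoters of 51 members in the table, 2 held the interferon response motif, 11 the GAS motif and 12 the AP-1 motif, and none held the heat shock motif or the E-box CACGTG, which 0.603% and 7.15% of all promoters held. The Serpinb6a window also held a GAS motif that overlaps the interferon response motif, and the Serpinb2 windows held a GAS motif too. Members whose stretches are not printed held such motifs as well. Among them were Serpinb8 and Serpina1a to Serpina1d with the AP-1 motif and Serpina11 with the GAS motif. Serpinf1, whose promoter is 1 of 5 of the 60 with the hypoxia motif ACGTG that 19.6% of all promoters held, carried none of the others. A match describes the letters only.

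Most of the Serpin transcript came from a handful of genes. Serpinh1, Serpinb6a and Serpinf1 together took 89.7 to 93.2% of the summed Serpin FPKM in wild-type MCA205 cells and 89.3 to 90.8% in sgNAT10 MCA205 cells. They took 48.5 to 68.9% and 50.3 to 57.1% in wild-type and sgNAT10 TC1 cells, where the liver list took 25.8 to 45.4% and 34.9 to 43.2%. In the tumours the shares of these 3 genes were 82.0 to 89.1% in wild type and 67.3 to 71.0% in sgNAT10. The liver list took 0.411 to 7.30% of the Serpin FPKM in wild-type and 12.8 to 15.1% in sgNAT10 tumours, ranges that do not overlap. These shares were not tested.

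**Figure D1:**
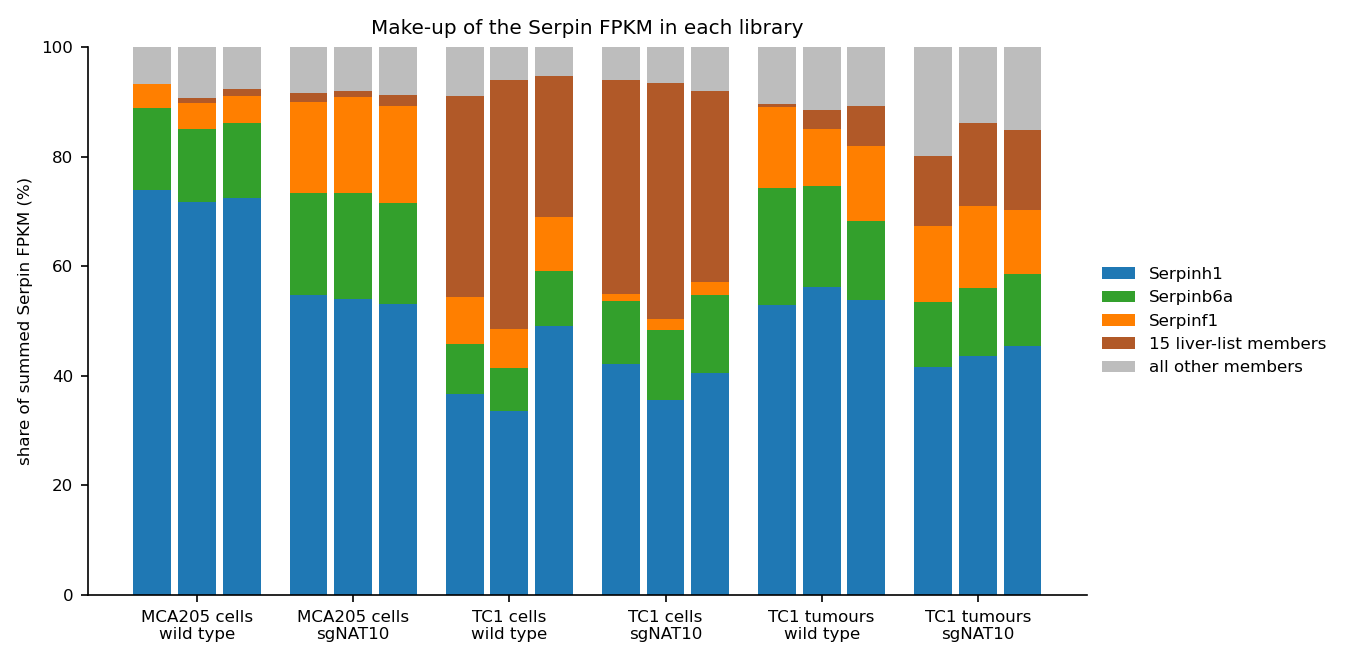
Share of the summed Serpin FPKM (y axis, percent) taken by 3 abundant members, the 15 members of the liver list and all others, with 1 bar for each of the 18 libraries. Serpinh1 is the tallest single gene in all 18 bars and taller than the whole liver list in 15, the liver list takes 25.8 to 45.4% of every TC1 cell bar, and the Serpinf1 block is taller in sgNAT10 than in wild-type MCA205 cells and shorter in sgNAT10 than in wild-type TC1 cells.

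With all libraries kept, the calls among expressed members in MCA205 cells and in the tumours were all upward. A gene was called at an adjusted p under 0.05 by edgeR's quasi-likelihood test over all genes of a table. In sgNAT10 MCA205 cells 8 of 15 expressed members were higher and 0 lower, against 26.4% and 25.1% of all genes that passed the same FPKM rule. Of those 8, Serpina3m, Serpinb1b, Serpinb2, Serpinb8 and Serpinb9b passed the rule only through their sgNAT10 libraries, so the rule itself favours higher calls. Counted in either direction, 8 of 15 is near the share of all genes that passed the rule. In TC1 cells 1 of 22 was higher and 1 lower, against 20.0% and 26.9%. In the tumours 7 of 25 were higher and 0 lower, against 7.89% and 12.8%. Of those 7, Serpini1 passed the rule only through its sgNAT10 libraries. Serpina6, which was not called, passed it that way too and is part of the tumour median below. Outside the liver list, 7 of 12 expressed members were higher and 0 lower in MCA205 cells, and 7 of 14 were higher and 0 lower in the tumours. Of 9 such members in TC1 cells 1 was higher and 1 lower. Counted in either direction, these shares were near that of all genes in MCA205 cells and below it in TC1 cells. Over all members tested, at any FPKM, 12 of 33 were higher and 2 lower in MCA205 cells. In TC1 cells 2 of 35 were higher and 2 lower, and in the tumours 9 of 37 were higher and 0 lower. The shares of all genes tested were 21.2% and 19.4% in MCA205 cells, 15.9% and 22.0% in TC1 cells, and 7.65% and 9.72% in the tumours. The median log2 change of the expressed members was 1.17, 0.06 and 1.58 in the 3 comparisons, beside -0.01, -0.08 and -0.07 for all genes that passed the rule. Outside the liver list the medians were 1.41, 0.05 and 0.89, and on it the tumour median was 2.48. Of the expressed members with no call, 1 in MCA205 cells and 2 in each of the other comparisons had an unadjusted p under 0.05. The tumour count of expressed members moved most. It was 2 with a covariate for liver and intestine marker levels. Liver marker sums did not overlap between the genotypes in the tumours, so that covariate and the genotype can hardly be told apart there. The tumour count ranged from 2 to 16 when 1 library was left out. It was 2 without wild type 2, 16 without wild type 1 and 11 without wild type 3, and 3, 3 and 4 without sgNAT10 1, 2 and 3. In TC1 cells the higher count was 3 without wild type 1 and the lower count 2 without wild type 3.

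**Figure D2:**
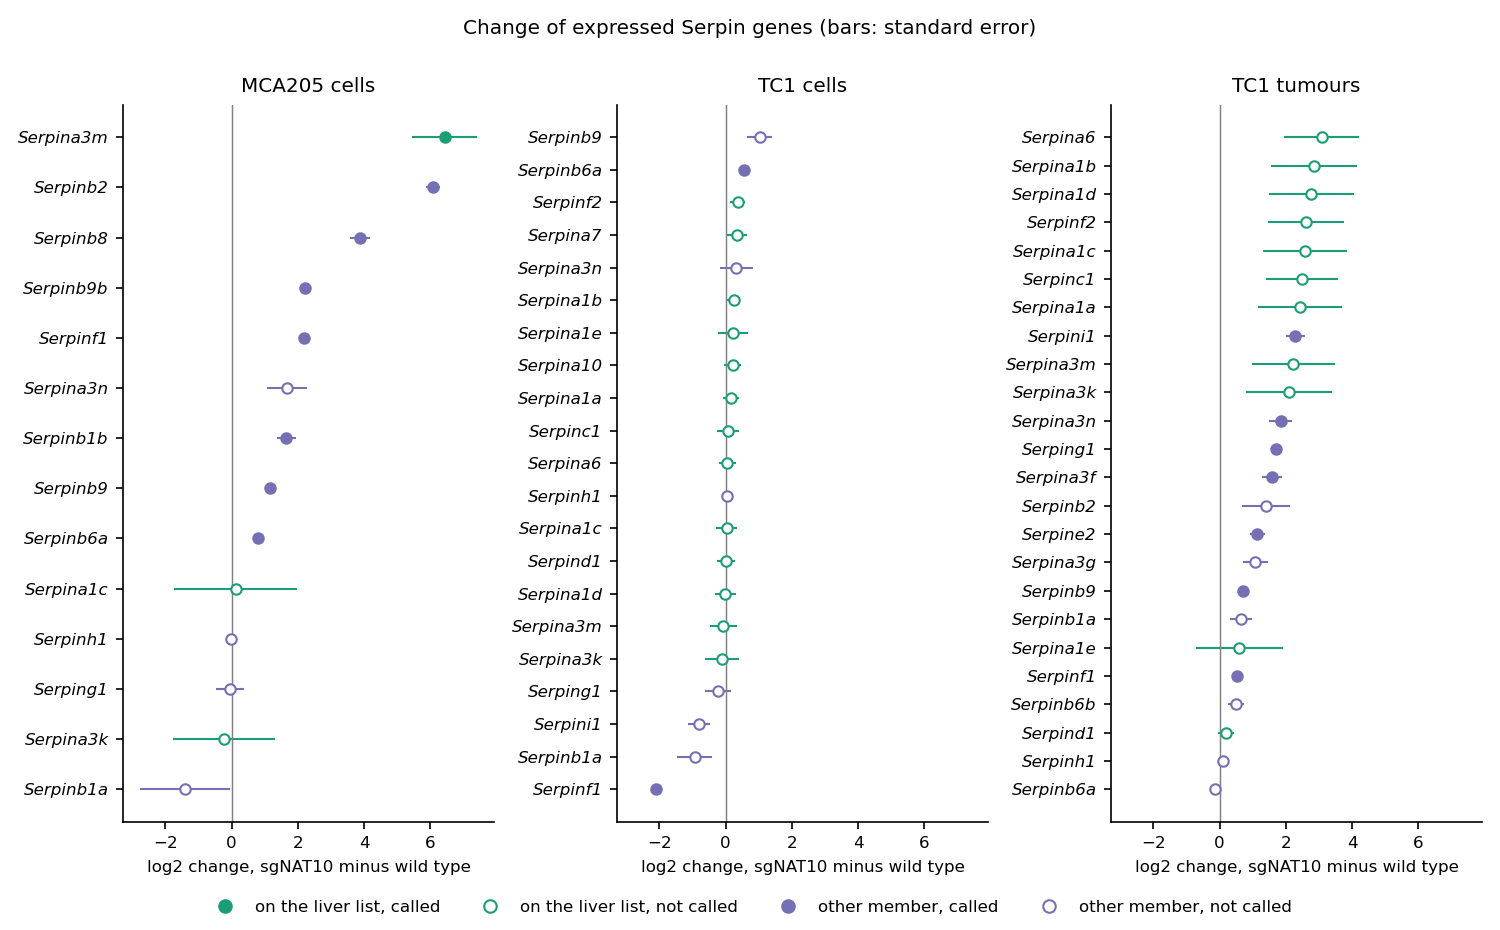
Log2 change from wild type to sgNAT10 (x axis) of the expressed members described here (y axis) in MCA205 cells, TC1 cells and TC1 tumours, with standard errors as bars, filled where edgeR called the gene and coloured by membership of the liver list. Serpina3m at 6.43 and Serpinb2 at 6.08 stand highest in MCA205 cells, and Serpinf1 at -2.09 lies lowest in TC1 cells. Serpina1c in MCA205 cells has the widest bar, at 1.87, and most liver-list members in the tumours have wide bars too.

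Serpinf1 encodes pigment epithelium-derived factor, a secreted protein that restrains blood vessel growth and lies at chr11:75409769-75422701 on the minus strand of GRCm38. It went in opposite directions in the 2 cell lines. In MCA205 cells its wild-type values were 30.5, 33.7 and 35.7 FPKM and its sgNAT10 values 151, 164 and 164 FPKM. All sgNAT10 values lay far above all wild-type values, and edgeR gave a log2 change of 2.18 (SE 0.05, adjusted p = 6.61e-07). In TC1 cells the values were 83.8, 75.7 and 75.2 FPKM without and 14.1, 19.5 and 21.6 FPKM with the guide. There every sgNAT10 value lay below every wild-type value, with a log2 change of -2.09 (SE 0.14, adjusted p = 9.03e-05). Both calls held under every alternative run. The effects differed by 4.22 on the log2 scale between the lines (SE 0.16, adjusted p = 5.57e-08). In the tumours Serpinf1 stood at 119, 87.1 and 137 FPKM in wild type and 183, 190 and 140 FPKM in sgNAT10. The groups lay close without overlapping, and the log2 change of 0.52 (SE 0.11, adjusted p = 0.0233) was lost without wild type 2, without any sgNAT10 library and with limma-trend, with adjusted p from 0.00132 to 0.18 over the alternatives. The tumour effect lay 2.54 above the effect in TC1 cells (SE 0.18, adjusted p = 4.67e-06). Both of these differences rest on the same TC1 cell libraries. Of the 11 fibroblast and mural markers, whose summed ranges are given above, 3 were called higher and 2 lower in MCA205 cells, 0 higher and 5 lower in TC1 cells, and 4 higher and 1 lower in the tumours. Beside them, 21.2% of all genes tested were higher and 19.4% lower in MCA205 cells, which the marker counts are near. The shares were 15.9% and 22.0% in TC1 cells and 7.65% and 9.72% in the tumours. The part of these markers in the result was not tested.

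Serpinf1 transcripts were mostly the full-length coding form. In MCA205 cells it took 87.2 ± 9.70% of the gene's estimated counts in wild type and 81.2 ± 0.773% in sgNAT10 cells (SD, n = 3). A shorter transcript of 882 bases annotated for nonsense-mediated decay took 1.28, 19.6 and 15.8% in the wild-type and 17.4, 18.2 and 18.7% in the sgNAT10 libraries. In TC1 cells the coding form took 95.7 ± 4.44% and 98.7 ± 1.36%. The coding form held most counts in both genotypes of both lines. In the tumours, transcripts annotated for nonsense-mediated decay took 34.4, 0.596 and 26.9% in wild type and 25.1, 23.9 and 1.03% in sgNAT10. These shares varied widely within each genotype and were not tested.

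Serpinh1, which encodes the collagen chaperone HSP47 of the endoplasmic reticulum, was the most abundant member in all 18 libraries and was not called. MCA205 cells held 513 ± 9.19 FPKM in wild type and 500 ± 9.12 FPKM in sgNAT10. TC1 cells held 365 ± 11.6 and 390 ± 47.0 FPKM, and tumours 477 ± 56.0 and 550 ± 5.48 FPKM (SD, n = 3). The log2 changes of -0.02, 0.05 and 0.10 had standard errors of 0.04, 0.10 and 0.13 and adjusted p of 0.792, 0.755 and 0.618. Of 19 genes for collagens, not all of them fibrillar, and proteins that modify them, 8 were higher and 7 lower in sgNAT10 MCA205 cells, 2 higher and 11 lower in TC1 cells, and 0 higher and 1 lower in the tumours. Of all genes tested, 21.2% were called higher and 19.4% lower in MCA205 cells, 15.9% and 22.0% in TC1 cells, and 7.65% and 9.72% in the tumours. The collagen gene Col1a2 fell from 96.8 ± 15.1 to 1.45 ± 0.417 FPKM and the lysyl hydroxylase gene Plod1 from 38.8 ± 2.95 to 11.4 ± 1.03 FPKM in TC1 cells. Col5a2 fell in all 3 settings, from 18.3 ± 0.581 to 2.78 ± 0.267 FPKM in MCA205 cells, from 34.7 ± 3.43 to 0.382 ± 0.0381 FPKM in TC1 cells and from 39.1 ± 17 to 16.0 ± 2.65 FPKM in the tumours. The collagen list had medians of -0.05, -0.78 and 0.24 beside -0.03, -0.08 and 0.02 for all genes tested.

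Serpine2, which encodes protease nexin 1, an inhibitor of thrombin and urokinase, was expressed in the tumours alone. The wild-type tumours held 2.17, 2.44 and 4.09 FPKM and the sgNAT10 tumours 8.07, 6.57 and 5.89 FPKM. The groups did not overlap, with a log2 change of 1.14 (SE 0.23, adjusted p = 0.0204) that was lost without wild type 2 or any sgNAT10 library, with adjusted p from 9.52e-05 to 0.294 over the alternatives. In TC1 cells Serpine2 went from 0.303 ± 0.0871 to 0.823 ± 0.444 FPKM (log2 change 1.37, adjusted p = 0.0456), below the level counted as expressed. Of the 13 targets and partners of the plasminogen activator inhibitors, 3 were higher and 3 lower in MCA205 cells, 2 higher in TC1 cells and 1 lower in the tumours. The MCA205 share is near that of all genes tested, 21.2% higher and 19.4% lower, and nothing is read from it. In TC1 cells 15.9% of all genes tested were higher and in the tumours 9.72% lower. The tissue activator gene Plat rose from 5.59 ± 0.173 to 13.8 ± 0.878 FPKM and the urokinase gene Plau fell from 5.74 ± 0.423 to 2.43 ± 0.263 FPKM in MCA205 cells. The urokinase receptor gene Plaur rose from 76.1 ± 0.660 to 111 ± 2.27 FPKM there and from 61.6 ± 5.87 to 95.1 ± 16.9 FPKM in TC1 cells. Plau fell from 24.1 ± 5.58 to 14.9 ± 0.422 FPKM in the tumours. The list's medians were -0.26, 0.10 and 0.05.

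In MCA205 cells 6 of the 7 expressed members of clade B were called higher, where 26.4% of all expressed genes were. Serpinb2, Serpinb8, Serpinb9b and Serpinb1b passed the FPKM rule only through their sgNAT10 libraries, so this count is partly set by the rule. Serpinb2 encodes PAI-2, an inhibitor of urokinase that is mostly kept inside macrophages and keratinocytes and lies at chr1:107511423-107535478. Its wild-type libraries held 0.110, 0.201 and 0.159 FPKM and its sgNAT10 libraries 10.3, 11.7 and 11 FPKM. The gene went from near absence to a moderate level in all 3 libraries, with a log2 change of 6.08 (SE 0.21, adjusted p = 3.20e-06). Serpinb8, an inhibitor of furin-type and other proteases, lies downstream on the same chromosome at chr1:107590006-107610484. It stood at 0.1, 0.224 and 0.0841 FPKM in wild type and 2.00, 2.08 and 1.70 FPKM in sgNAT10, again without overlap (log2 change 3.88, SE 0.30, adjusted p = 0.000107). Neither gene was called in TC1 cells, where Serpinb2 stood between 0.312 and 1.2 FPKM and Serpinb8 between 0.160 and 0.652 FPKM. The MCA205 effect exceeded the TC1 effect by 6.71 for Serpinb2 (SE 0.68, adjusted p = 3.01e-05) and by 2.94 for Serpinb8 (SE 0.51, adjusted p = 0.00104). Both calls in MCA205 cells held under every alternative run. The 12 epidermis markers summed to 1.72, 55.3 and 2.18 FPKM in wild-type and 10.4, 10.5 and 8.80 FPKM in sgNAT10 MCA205 cells, so that wild type 2 alone lay above the sgNAT10 libraries. Of these markers 1 was called higher and 0 lower, where 21.2% of all genes tested were higher and 19.4% lower. The keratin gene Krt5 was listed at 0 outside wild type 2, where it held 14.8 FPKM, and its partner Krt14 held 0, 20.4 and 0 FPKM in wild type and 0.583, 0.728 and 0.517 FPKM in sgNAT10. The 11 macrophage markers summed to 36.0 to 58.5 FPKM in wild type and 50.6 to 67.6 FPKM in sgNAT10, and the part of either list in the result was not tested.

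Serpinb9 encodes the inhibitor of granzyme B that shields cells from cytotoxic lymphocytes, and it lies at chr13:33003250-33017957 beside a run of close copies. In MCA205 cells it stood at 2.32, 2.67 and 2.12 FPKM in wild type and 5.22, 5.62 and 5.13 FPKM in sgNAT10. Every sgNAT10 value lay above every wild-type value, with a log2 change of 1.17 (SE 0.10, adjusted p = 0.000167) that held under every alternative run. TC1 cells held 2.08, 1.01 and 0.719 FPKM in wild type and 2.51, 2.87 and 2.6 FPKM in sgNAT10. These groups did not overlap either, but the wild-type libraries were spread widely and the log2 change of 1.03 (SE 0.37) had an adjusted p of 0.0685, between 0.00361 and 0.145 over the alternatives. It was called without wild type 1, with DESeq2 and with RLE size factors. In the tumours Serpinb9 stood at 8.65, 9.38 and 13.2 FPKM in wild type and 19.6, 18.3 and 16.1 FPKM in sgNAT10. The groups were apart, with a log2 change of 0.69 (SE 0.14, adjusted p = 0.0199) that was lost without wild type 2 or any sgNAT10 library, with adjusted p from 0.00122 to 0.285 over the alternatives. Its effect in TC1 cells was not shown to differ from that in MCA205 cells (difference 0.08, SE 0.41, adjusted p = 0.907) or in the tumours (difference -0.40, SE 0.41, adjusted p = 0.506), although the tumour difference was called without wild type 1 of the TC1 cells (adjusted p = 0.0126). In the tumours 1 sgNAT10 library had 79.6% of its Serpinb9 counts on the longer of 2 coding transcripts, which took at most 4.19% in the other 5. The 13 T and NK cell markers were all above 0 in the tumours, at a summed 21.8 to 50 FPKM in wild type and 44.5 to 64.3 FPKM in sgNAT10, and their part in the result was not tested.

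Copies of Serpinb9 were also higher in sgNAT10 MCA205 cells. Serpinb9b, its nearest neighbour on the chromosome, stood at 0.641, 0.673 and 0.483 FPKM in wild type and 2.89, 2.72 and 2.69 FPKM in sgNAT10. The groups were well apart (log2 change 2.23, SE 0.16, adjusted p = 8.24e-05), and the effect exceeded that in TC1 cells by 1.97 (SE 0.38, adjusted p = 0.00231). Serpinb9e and Serpinb9g were listed at 0 in all wild-type MCA205 libraries. Over the group of 3 sgNAT10 libraries they held 156 and 64 estimated counts, at least 48.0-fold and at least 19.7-fold higher than a floor of 3 counts over the wild-type group. Both stayed under 0.5 FPKM, and Serpinb9g shares most of its coding sequence with its neighbours. Of the 13 granzyme and neutrophil protease genes that such inhibitors meet, 2 could be tested in MCA205 cells, 4 in TC1 cells and 11 in the tumours. edgeR called 0 of them in either cell line, with 0 at an unadjusted p under 0.05. In the tumours, where 9.72% of all genes tested were lower, 1 was lower, Gzmg from 6.62 ± 5.39 to 0.874 ± 0.465 FPKM, while Gzmb stood at 21.2 ± 14.8 and 58.7 ± 8.07 FPKM (adjusted p = 0.0541). These lists were tested with edgeR alone.

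Serpinb6a, a broadly expressed inhibitor of cathepsin G and related proteases, was abundant and rose in both lines. Its wild-type MCA205 libraries held 103, 94.2 and 98.6 FPKM and its sgNAT10 libraries 171, 182 and 170 FPKM. The values within a group lay close together, with a log2 change of 0.81 (SE 0.05, adjusted p = 2.70e-05). TC1 cells held 90.9, 81.4 and 78.1 FPKM in wild type and 121, 132 and 126 FPKM in sgNAT10, also apart (log2 change 0.56, SE 0.07, adjusted p = 0.001). In the tumours the groups overlapped at 156 ± 14.7 and 158 ± 0.548 FPKM (log2 change -0.13, SE 0.15, adjusted p = 0.583). The tumour effect lay below the TC1 effect by 0.76 (difference -0.76, SE 0.17, adjusted p = 0.00762). The isoforms of Serpinb6a also stood apart in TC1 cells. A coding transcript of 1547 bases took 34.4, 52.2 and 55.0% of its counts in wild type and 71.4, 79.9 and 77.6% in sgNAT10. This transcript took 58.3 ± 5.75% and 62.6 ± 15.6% in MCA205 cells and 85.2 ± 7.86% and 84.1 ± 6.79% in the tumours (SD, n = 3). These shares rest on the authors' division of reads among transcripts and were not tested.

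The remaining clade B members were low. Serpinb1b, a copy of the neutrophil elastase inhibitor gene, stood at 0.313, 0.519 and 0.450 FPKM in wild-type and 1.12, 1.45 and 1.41 FPKM in sgNAT10 MCA205 cells. Its log2 change of 1.66 (SE 0.28, adjusted p = 0.00303) was lost with a dispersion shared over all 18 libraries (adjusted p = 0.128). In the tumours it stood at 0.238, 0.155 and 0.224 FPKM in wild type and 1.38, 1.57 and 0.958 FPKM in sgNAT10, under the FPKM rule but called (log2 change 2.37, SE 0.37, adjusted p = 0.0094). Serpinb6b stood at 1.77, 0.683 and 0.721 FPKM in wild-type and 0.480, 0.284 and 0.430 FPKM in sgNAT10 TC1 cells. Wild type 1 lay well above the other wild-type libraries, and the log2 change was -1.45 (SE 0.47, adjusted p = 0.0479). Serpinb1a, the main elastase inhibitor of this group, varied more within groups than between them. It ranged from 0.160 to 7.74 FPKM in wild-type and from 0.0899 to 2.20 FPKM in sgNAT10 MCA205 cells, with the lowest value of each group in the library that was also lowest in liver markers. It was not called in MCA205 cells, TC1 cells or tumours (adjusted p of 0.472, 0.221 and 0.218), but was called lower in TC1 cells without wild type 3 and with a covariate for liver and intestine level, where its adjusted p over the alternatives ran from 0.00239 to 0.603. In the tumours Serpinb2 stood at 4.31, 0.730 and 0.764 FPKM in wild type and 5.28, 5.51 and 7.04 FPKM in sgNAT10. The wild-type 1 tumour lay near the sgNAT10 tumours, and the change was called (adjusted p = 0.209 with all libraries) only when it was left out, with limma-trend on log2(FPKM + 1), or with that covariate.

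**Figure D3:**
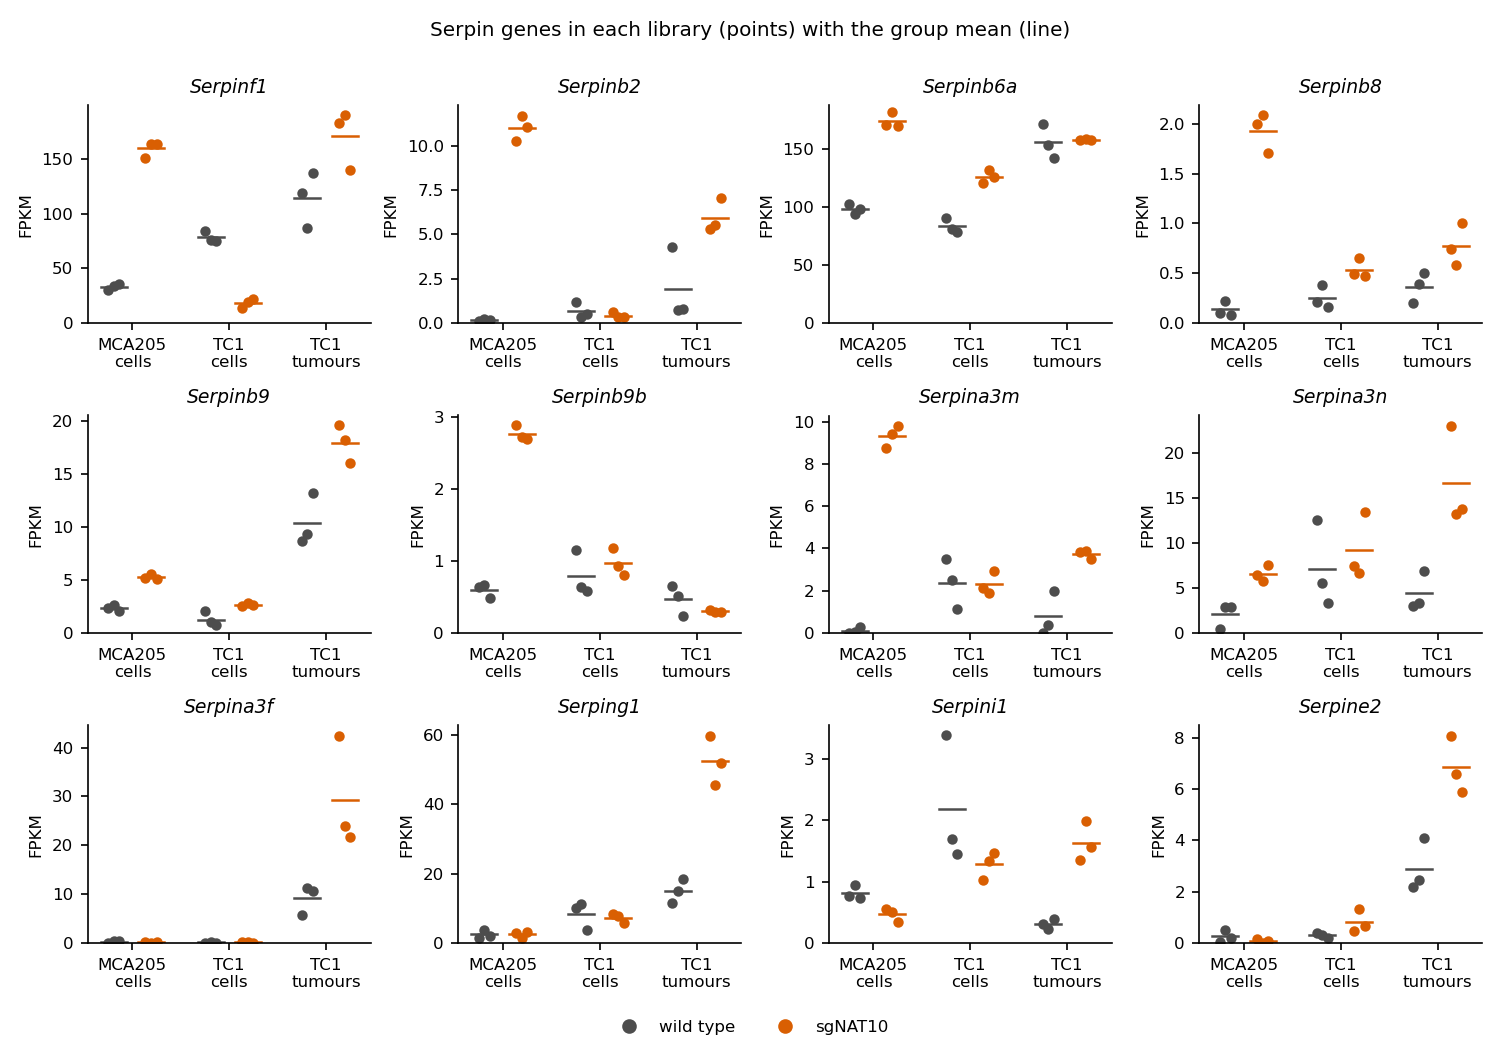
FPKM (y axis, from 0) of 12 members in each library of the 6 groups (points, with the group mean as a line), wild type in grey and sgNAT10 in orange. Serpinf1 is higher in sgNAT10 than in wild-type MCA205 cells and lower in sgNAT10 than in wild-type TC1 cells, Serpinb2 reaches 10.3 to 11.7 FPKM in sgNAT10 MCA205 cells, and Serping1 reaches 45.4 to 59.7 FPKM in sgNAT10 tumours.

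The Serpina3 genes are mouse copies of the alpha-1-antichymotrypsin gene and lie in a cluster on chromosome 12. Serpina3m, on the liver list, was listed at 0, 0.0440 and 0.283 FPKM in wild-type MCA205 cells and at 8.76, 9.44 and 9.80 FPKM in sgNAT10 cells. The gene was nearly absent in wild type and present in all 3 sgNAT10 libraries, with a log2 change of 6.43 (SE 0.98, adjusted p = 0.00207) that held under every alternative run. It stood at 9.44 FPKM in sgNAT10 2, where Alb was at 0.0282 FPKM and the 18 liver markers summed to 1.08 FPKM, and at 8.76 and 9.80 FPKM where the markers summed to 51.6 and 59.4 FPKM. Its level in MCA205 cells therefore did not follow the liver markers. In TC1 cells Serpina3m stood at 3.49, 2.52 and 1.14 FPKM in wild type and 2.15, 1.89 and 2.93 FPKM in sgNAT10, and the groups overlapped (log2 change -0.08, SE 0.41, adjusted p = 0.91). The effects in the 2 lines differed by 6.41 (SE 1.21, adjusted p = 0.00182).

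Serpina3n, which is made in liver and in many inflamed tissues and blocks cathepsin G and granzyme B, stood at 0.449, 2.91 and 2.90 FPKM in wild-type and 6.47, 5.78 and 7.54 FPKM in sgNAT10 MCA205 cells. The groups did not overlap, but wild type 1 lay far below the other 2 and the log2 change of 1.67 (SE 0.61) had an adjusted p of 0.0673. It was called without wild type 1, without wild type 1 and sgNAT10 2 together, with limma-trend, and with the covariate, and its adjusted p ran from 0.00122 to 0.173 over the alternatives. In TC1 cells it stood at 7.13 ± 4.84 and 9.21 ± 3.68 FPKM (adjusted p = 0.653). The wild-type tumours held 2.96, 3.36 and 6.88 FPKM and the sgNAT10 tumours 23.1, 13.2 and 13.8 FPKM. Here all sgNAT10 values were above all wild-type values (log2 change 1.84, SE 0.34, adjusted p = 0.0148). Serpina3f, expressed in the tumours alone, stood at 5.65, 11.3 and 10.7 FPKM in wild type and 42.4, 23.9 and 21.7 FPKM in sgNAT10. Its groups did not overlap (log2 change 1.58, SE 0.31, adjusted p = 0.0171), while both cell lines held at most 0.416 FPKM. Serpina3g, an inhibitor of cysteine cathepsins inside blood cells, stood at 12.5, 14.4 and 27.5 FPKM and at 66.8, 30.3 and 29.2 FPKM. The gap between the groups was small and the log2 change of 1.08 (SE 0.37) had an adjusted p of 0.0856. In all 3 genes the highest tumour was sgNAT10 1. The call for Serpina3n was lost without wild type 2 or sgNAT10 1, that for Serpina3f without wild type 2 or sgNAT10 2, and Serpina3g was called without wild type 3 and with DESeq2. With the covariate for liver and intestine level neither Serpina3n (log2 change 1.25, adjusted p = 0.223) nor Serpina3f (log2 change 1.10, adjusted p = 0.287) was called. Serpina3h, annotated as a transcribed pseudogene, was listed at 0 in the wild-type tumours and held 138 estimated counts in the sgNAT10 tumours, at least 53.3-fold higher than a floor of 3 counts over the group.

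Of the 12 cathepsin and legumain genes that Serpina3g, Serpinb6a and their relatives meet in lysosomes and cytosol, 6 were higher and 2 lower in sgNAT10 MCA205 cells, 4 higher in TC1 cells and 2 higher in the tumours. Of all genes tested, 21.2% were higher and 19.4% lower in MCA205 cells, 15.9% higher in TC1 cells and 7.65% higher in the tumours. The medians were 0.27, 0.03 and 0.17. Ctsl, a cysteine protease gene, rose from 771 ± 16.1 to 1362 ± 42.2 FPKM and Ctsb from 109 ± 1.49 to 191 ± 3.49 FPKM in MCA205 cells. Ctsd, which encodes an aspartic protease, rose from 176 ± 11.7 to 258 ± 13.4 FPKM and Ctsf from 0.723 ± 0.352 to 7.53 ± 0.901 FPKM in TC1 cells. In the tumours Ctsk rose from 3.69 ± 0.771 to 7.25 ± 0.998 FPKM and Ctso from 5.59 ± 2.48 to 10.9 ± 0.971 FPKM.

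Serping1 encodes C1 inhibitor, which stops the first proteases of the complement and contact cascades, and lies at chr2:84765387-84775444. It was the steadiest tumour result. The wild-type tumours held 11.5, 14.9 and 18.3 FPKM and the sgNAT10 tumours 59.7, 45.4 and 51.9 FPKM. The lowest sgNAT10 tumour was well above the highest wild-type tumour, and edgeR gave a log2 change of 1.71 (SE 0.15, adjusted p = 0.00243). The call held under every alternative run, with log2 changes from 1.45 to 1.82 and adjusted p up to 0.0399, the last with the covariate for liver and intestine level. MCA205 cells held 2.46 ± 1.21 and 2.46 ± 0.806 FPKM (adjusted p = 0.957) and TC1 cells 8.28 ± 4.05 and 7.26 ± 1.29 FPKM (adjusted p = 0.705). The tumour effect exceeded that in TC1 cells by 1.86 (SE 0.45, adjusted p = 0.00977). Of 16 early complement and contact genes, 3 of 13 tested were higher in MCA205 cells, 0 of 15 tested were called in TC1 cells, with 0 at an unadjusted p under 0.05, and 3 of 16 were higher in the tumours. The shares of all genes tested that were higher were 21.2% in MCA205 cells, which the list's share is near, 15.9% in TC1 cells and 7.65% in the tumours. C1s1 and C1ra, which encode the proteases that C1 inhibitor blocks, rose from 89.6 ± 42.2 to 197 ± 14.3 FPKM and from 57.2 ± 28.3 to 125 ± 14.7 FPKM in the tumours, and C2 from 1.61 ± 0.190 to 4.99 ± 0.726 FPKM. In MCA205 cells C1s1 rose from 34.2 ± 1.30 to 49.1 ± 1.39 FPKM, C1ra from 23.7 ± 0.962 to 37.2 ± 1.77 FPKM and C3 from 24.8 ± 1.45 to 39.6 ± 1.46 FPKM. The list's medians were 0.21, -0.33 and 1.24.

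Several marker lists of other cells moved in the tumours alongside these members. The 9 endothelial markers, all above 0, summed to 51.4 to 68.1 FPKM in wild-type and 97.0 to 109 FPKM in sgNAT10 tumours. The 8 skeletal muscle markers, all above 0, summed to 22.9 to 31.1 and 98.4 to 145 FPKM, and the 6 adipocyte markers, all above 0, to 21.7 to 39.1 and 54.8 to 78.1 FPKM. The liver markers, all above 0, summed to 6.49 to 298 and 704 to 787 FPKM. The 11 macrophage markers overlapped, at 1328 to 1827 and 1238 to 1419 FPKM. The part of these lists in the results for Serping1, Serpina3f, Serpina3n, Serpine2, Serpinb9, Serpini1 and Serpinf1 was not tested beyond the covariate for liver and intestine level, under which Serping1 alone of the 7 was called. Liver marker sums stood apart by genotype, so this covariate and the genotype can hardly be told apart here, and nothing is read from the lost calls. With the covariate the log2 changes of Serpinf1 and Serpini1 were 0.52 and 2.30, as large as without it. Those of Serpina3n, Serpina3f and Serping1 were 1.25, 1.10 and 1.45, and those of Serpine2 and Serpinb9 were 0.73 and 0.48.

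Serpini1 encodes neuroserpin, an inhibitor of tissue plasminogen activator known from nerve cells. The wild-type tumours held 0.316, 0.232 and 0.384 FPKM and the sgNAT10 tumours 1.35, 1.98 and 1.56 FPKM. All sgNAT10 tumours lay above 1 FPKM and all wild-type tumours under it (log2 change 2.29, SE 0.29, adjusted p = 0.00561). The call was lost only with the covariate for liver and intestine level (log2 change 2.30, adjusted p = 0.0775, the highest over the alternatives). In TC1 cells it stood at 3.38, 1.69 and 1.45 FPKM and at 1.03, 1.34 and 1.47 FPKM, which overlap (log2 change -0.81, SE 0.34, adjusted p = 0.105). The tumour and TC1 effects differed by 3.02 (SE 0.47, adjusted p = 0.000771).

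The alpha-1-antitrypsin genes were low in the libraries where the liver markers were low, while Serpina3m, Serpina11 and Serpind1 of the liver list did not keep to that pattern in every setting. Summed over Serpina1a to Serpina1e, the wild-type MCA205 libraries held 0, 4.72 and 6.82 FPKM and the sgNAT10 libraries 4.98, 0.0222 and 6.2 FPKM. The low libraries, wild type 1 and sgNAT10 2, also had the lowest liver marker sums, 3.01 and 1.08 FPKM, against 51.6 to 106 FPKM in the other 4. TC1 cells held 293, 373 and 164 FPKM in wild type and 335, 357 and 258 FPKM in sgNAT10. The tumours held 0, 18.5 and 50.2 FPKM in wild type and 127, 138 and 133 FPKM in sgNAT10, beside liver marker sums of 6.49, 75.9 and 298 and of 704, 787 and 719 FPKM. For each 100 FPKM of Alb there were 59.3 to 95.4 FPKM of Serpina1 transcript in TC1 cells and 53.9 to 94.5 FPKM in the tumours with Alb above 0, but 218 to 272 FPKM in the 4 MCA205 libraries with more than 1 FPKM of Alb. Liver is not the labelled source of any library, so these members are possible carry-over of liver RNA, which was not tested here.

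**Figure D4:**
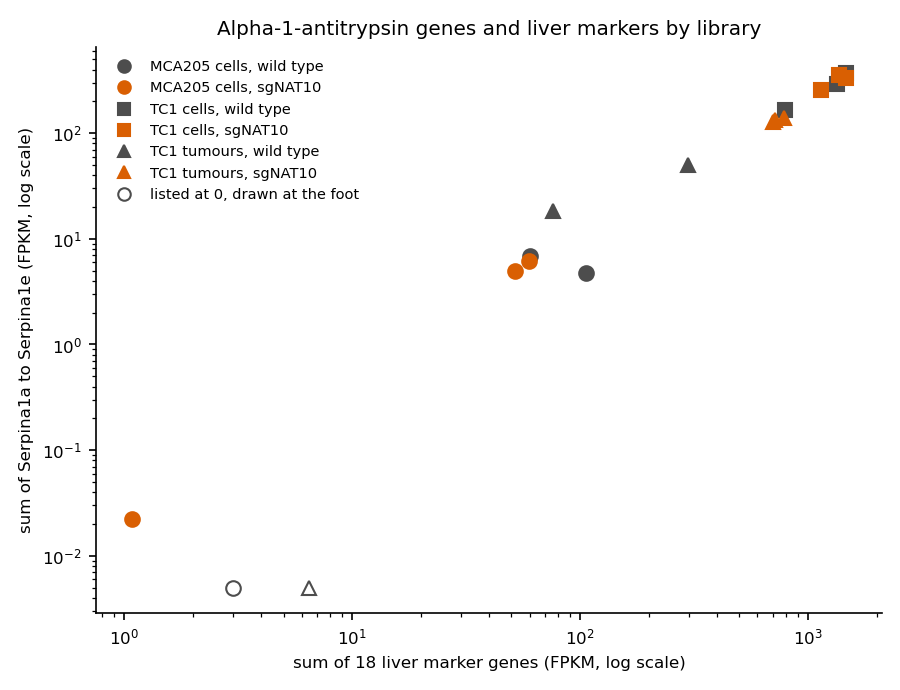
Sum of Serpina1a to Serpina1e (y axis, FPKM, log scale) against the sum of 18 liver marker genes (x axis, FPKM, log scale) in each of 18 libraries, by setting (shape) and genotype (colour), with the 2 libraries listed at 0 drawn open at the foot. TC1 cells lie at 164 to 373 FPKM, sgNAT10 tumours at 127 to 138 FPKM and wild-type tumours between 0 and 50.2 FPKM.

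In TC1 cells the alpha-1-antitrypsin genes stood at similar levels in both genotypes. Serpina1a held 63.3, 72.3 and 36.1 FPKM in wild type and 67.6, 72.0 and 59.3 FPKM in sgNAT10. Serpina1b held 81.6, 81.7 and 48.2 and 86.6, 89.4 and 82.4 FPKM. Wild type 3 was the lowest library for both, as it was for the liver markers. Serpina1c held 67.7, 95.4 and 39.7 and 76.5, 84.2 and 53.9 FPKM. Serpina1d held 30.6, 41.7 and 17.1 and 31.9, 36.2 and 23.6 FPKM. Serpina1e held 49.7, 81.7 and 23.2 and 72.8, 74.7 and 39.1 FPKM. In these 3 genes the groups overlapped and library 3 of each genotype was the lowest. Serpina3k, which encodes the kallikrein inhibitor kallistatin, held 39.9, 73.8 and 18.5 and 45.1, 57.2 and 23.6 FPKM, in the same order. Antithrombin, from Serpinc1, held 5.99, 8.37 and 2.96 and 5.85, 7.06 and 4.31 FPKM. Heparin cofactor II, from Serpind1, held 5.39, 5.94 and 2.81 and 5.31, 4.87 and 4.73 FPKM. Wild type 3 was again the lowest. Alpha-2-antiplasmin, from Serpinf2, held 11, 9.5 and 5.59 and 11.3, 10.6 and 12.2 FPKM. The hormone carriers were low, with the corticosteroid carrier gene Serpina6 at 1.31, 1.87 and 1.47 and 1.95, 1.36 and 1.75 FPKM. The thyroxine carrier gene Serpina7 held 1.26, 0.705 and 0.566 and 1.12, 1.71 and 0.648 FPKM. Serpina10, an inhibitor of coagulation factor X, held 1.28, 1.09 and 0.805 and 1.60, 1.13 and 1.09 FPKM. edgeR called 0 of the 13 liver-list members in TC1 cells, with 0 at an unadjusted p under 0.05. DESeq2 and limma-trend called 0 as well, and the median log2 change was 0.07.

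In the tumours the same genes were high in all sgNAT10 libraries and spread in wild type. Serpina1a held 0, 3.77 and 11.8 FPKM in wild type and 26.5, 29.4 and 28.3 FPKM in sgNAT10. Serpina1b held 0, 3.29 and 12.9 and 38.9, 37.7 and 41.1 FPKM. Serpina1c held 0, 4.70 and 14.6 and 35.8, 41.9 and 39.2 FPKM. For each of them wild type 1 was at 0 and wild type 3 was the highest of its group. Serpina1d held 0, 1.53 and 8.16 and 22.7, 22.2 and 21.7 FPKM. Serpina1e held 0, 5.19 and 2.72 and 2.71, 7.20 and 2.43 FPKM, the single alpha-1-antitrypsin gene whose groups overlapped. Serpina3k held 0, 5.85 and 13.6 and 25.6, 34.8 and 23.6 FPKM. Serpina3m held 0, 0.399 and 1.97 and 3.85, 3.88 and 3.51 FPKM, apart like its neighbour. Serpina6 held 0, 0.0900 and 0.490 and 1.74, 1.52 and 1.71 FPKM. Serpinc1 held 0.0444, 0.679 and 2.24 and 4.93, 5.16 and 5.82 FPKM. Serpinf2 held 0, 0.404 and 0.979 and 2.66, 2.96 and 2.92 FPKM. Serpind1 differed from the others of the list. It held 3.26, 2.83 and 2.34 FPKM in wild type and 2.91, 3.56 and 4.07 FPKM in sgNAT10, so wild type 1, with Alb at 0, was the highest of its group. edgeR called 0 of the 11 liver-list members in the tumours, with log2 changes from 0.19 to 3.08, standard errors of up to 1.31 and 1 unadjusted p under 0.05. It called 8 of them higher without wild type 1 and 3 without wild type 3, while limma-trend on log2(FPKM + 1) called 8, and DESeq2 called 0. With the covariate for liver and intestine level 0 were called, and Serpina1a had a log2 change of -1.53 in place of 2.43, neither of them called.

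In MCA205 cells 3 liver-list members were expressed. Serpina1c stood at 0, 1.86 and 2.37 FPKM in wild type and 1.94, 0 and 2.64 FPKM in sgNAT10. Serpina3k stood at 0, 0.911 and 1.62 FPKM and at 1.06, 0.0574 and 1.01 FPKM. Both were low in the same 2 libraries as the liver markers and overlapped between the groups, unlike Serpina3m. Under the FPKM rule but called, Serpina11 went from 0.0509 ± 0.0438 to 0.485 ± 0.0163 FPKM (log2 change 3.20, adjusted p = 0.00607) and Serpina12, which encodes the adipokine vaspin, from 0.0205 ± 0.0180 to 0.208 ± 0.0467 FPKM (log2 change 3.26, adjusted p = 0.032). Serpind1 went from 0.315 ± 0.0716 to 0.0598 ± 0.0261 FPKM (log2 change -2.30, adjusted p = 0.0108) and Serpini1 from 0.811 ± 0.119 to 0.469 ± 0.109 FPKM (log2 change -0.78, adjusted p = 0.0449). Serpina11 and Serpind1 are on the liver list, yet their values in sgNAT10 2, 0.484 and 0.0689 FPKM, lay between those of the other sgNAT10 libraries.

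The 30 members expressed in no table were Serpina1f, Serpina3b, Serpina3c, Serpina3h, Serpina3i, Serpina3j, Serpina9, Serpina11, Serpina12, Serpina16, Serpinb1c, Serpinb3a, Serpinb3b, Serpinb3c, Serpinb5, Serpinb6c, Serpinb6d, Serpinb6e, Serpinb7, Serpinb9c to Serpinb9h, Serpinb10, Serpinb11, Serpinb12, Serpine3 and Serpini2. Their highest library reached a median of 0.137 FPKM in MCA205 cells, 0.114 FPKM in TC1 cells and 0.263 FPKM in the tumours. The peak among them was the epidermal tumour suppressor gene Serpinb5, at 4.36 FPKM in the sgNAT10 3 tumour, where the 12 epidermis markers, all above 0, summed to 236 FPKM against 3.28 to 24.5 FPKM in the other tumours. In wild-type MCA205 2, where those markers summed to 55.3 FPKM against 1.72 to 10.5 FPKM in the other MCA205 libraries, Serpinb3a reached 2.21 FPKM and Serpinb5 and Serpinb12 reached 1.04 and 1.03 FPKM. Close to the limit of the rule, the library in place 3 by level held 0.886 FPKM for Serpinb6b and 0.888 FPKM for Serpina1b outside it and 1.01 FPKM for Serpina3k and 1.12 FPKM for Serpinb1b inside it in MCA205 cells. In the tumours Serpinb1b at 0.958 FPKM lay just outside and Serpini1 at 1.35 FPKM just inside, and in TC1 cells Serpina11 at 0.935 FPKM just outside and Serpina7 at 1.12 FPKM just inside.

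The effect of the genotype differed between settings for some members. Between MCA205 and TC1 cells 6 of 27 members expressed over the 12 libraries had effects that differed, against 45.9% of all such genes. They were Serpina3m, Serpinb2, Serpinb8, Serpinb9b and Serpinf1, higher in MCA205 cells, and Serpind1, with a difference of -2.37 (SE 0.49, adjusted p = 0.00303). Between the tumours and TC1 cells 5 of 27 differed, against 34.8% of all such genes. They were Serpinf1, Serping1, Serpini1 and Serpinb6b, higher in the tumours, and Serpinb6a, lower there. Serpinb6b differed by 1.87 (SE 0.54, adjusted p = 0.0248), a call lost without sgNAT10 2 or sgNAT10 3 of the TC1 cells or sgNAT10 2 of the tumours. Without wild type 1 or wild type 3 of the tumours 12 and 14 members differed. The share of all 27 members was below that of all genes in both comparisons. Outside the liver list 4 of 14 differed between the lines. Between the tumours and TC1 cells 5 of 14 of these members differed, near the share of all genes. On the liver list 2 of 13 and 0 of 13 differed. Both comparisons use the same TC1 cell libraries.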

How the data were processed

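RNA was measured in 18 libraries, with 1 deposited table each for MCA205 cells, TC1 cells and TC1 tumours. The deposited columns hold FPKM and estimated counts per transcript, side by side for each library, per the file headers. Per the submitters' processing notes, the tools were Bowtie2, featureCounts, FastQC and Trim Galore and the build mm10, listed with no roles. Which program computed the values is not stated in any source used. The authors' estimated counts were whole as deposited, and rounding changed none. Columns named KO were taken as sgNAT10. Transcripts were summed per gene identifier. Since reads were divided among transcripts and relatives before deposit, values of near-identical members are uncertain.

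Each table was fitted alone with edgeR 4.0.16 (TMM, quasi-likelihood test, 3 against 3 libraries, R 4.3.3) over all genes that passed its count filter, and p-values were adjusted by Benjamini-Hochberg over those genes, with 0.05 as the threshold. Differences between effects were tested as an interaction over 12 libraries. Differences of log2 changes and their standard errors come from these fits. Alternatives used DESeq2 1.42.0, limma 3.58.1 on log2(FPKM + 1) or log2(FPKM + 0.1), other filters and size factors, a covariate made from 18 liver and 12 intestine markers, a replicate block and leaving out each library. The fits were tested on simulated data. For MCA205 cells, TC1 cells and tumours they recovered 63, 58 and 37% of 2-fold changes and 83, 91 and 75% of 4-fold changes. Of the simulated calls 6.41, 6.88 and 9.68% were false, above the threshold of 0.05 in each.

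Every library's value is given for members called in a comparison with a log2 change of at least 1 and a higher group mean of at least 1 FPKM, and for expressed liver-list members. Others are given by group means or ranges, or in full where this helps. Of each list of partner genes, up to 4 with the smallest p in a comparison were named. Members, lists and markers were chosen with earlier results of these data known. Replicate numbers did not pair the libraries. No 2 libraries of a group agreed within sampling noise. Positions are from GENCODE M21 on GRCm38, where all 60 members were matched by identifier, and promoters from RefSeq on GRCm38.p6. The values of 1 member are not reported here, although counts of members include it.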

Additional observations from a re-analysis of the deposited data

Results flagged for a closer look

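For the members below the effect of the genotype differed between settings by edgeR's interaction test. Values are differences of log2 changes, both comparisons share the TC1 cell libraries, and no explanation was weighed. Between MCA205 and TC1 cells the effect was higher in MCA205 cells by 3.54 for Serpina11, 3.03 for Serpina12, 6.41 for Serpina3m, 6.71 for Serpinb2, 2.94 for Serpinb8, 1.97 for Serpinb9b and 4.22 for Serpinf1. It was -2.37 for Serpind1. For Serpinb9e, listed at 0 in wild-type MCA205 cells, the fitted 8.42 depends on the prior count and is no bound. Between TC1 tumours and TC1 cells the effect was higher in the tumours by 1.87 for Serpinb6b, 2.54 for Serpinf1, 1.86 for Serping1 and 3.02 for Serpini1. It was -0.76 for Serpinb6a. For Serpina3h, listed at 0 in wild-type tumours, the fitted 8.97 is likewise no bound.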

How the results depend on the processing

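In MCA205 cells the counts of 8 expressed members higher and 0 lower stayed within 1.5 times under each alternative run, as did the 6 that differed between MCA205 and TC1 cells. In TC1 cells the 1 member higher became 2 with RLE size factors, a minimum of 1 CPM, DESeq2, limma-trend with either pseudocount or a dispersion over 18 libraries, and 0 with a 2-fold minimum, which also ended the Serpinb6a call in MCA205 cells, while the 1 lower became 2 with the covariate. Leaving out 1 library gave 1 to 3 higher and 1 to 2 lower there. In the tumours the 7 higher became 15 with limma-trend on log2(FPKM + 1) and 2 with the covariate, and ranged from 2 to 16 without 1 library, with 0 to 1 lower. The 5 that differed between tumours and TC1 cells ranged from 4 to 14 without 1 library. At a minimum of 5 FPKM, 8 members were expressed in MCA205 cells and 16 in the tumours. With 3 libraries a group, a missed call does not show that a member was unchanged, and most liver-list members in the tumours had standard errors above 1.

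Same-numbered libraries correlated between -0.66 and 0.22, so numbers were not taken as pairs. The replicate block left 2 of 7 tumour calls, with Serping1 at a log2 change of 1.71.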
